A study of Mus musculus with 2 samples.

Results

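Mertk, Axl, Gas6, Pros1, Itgav, Itgb5, Mfge8, Elmo1 and Dock2 encode receptors, bridging proteins and engulfment proteins for the uptake of dying cells, a process called efferocytosis. These 9 genes were taken by name from the 32285 genes of both deposited count matrices, and each had UMIs (unique molecular identifiers, 1 per captured transcript) in both libraries. Dying cells expose phosphatidylserine, which soluble bridging proteins couple to receptors on the eating cell: Gas6 and protein S to the TAM receptor kinases, and Mfge8 to integrins that contain the αv chain. Elmo and Dock proteins then activate Rac so that actin closes around the corpse. In adipose tissue, macrophages gather around dying adipocytes and clear them.

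The study sequenced single CD45+ DAPI- cells sorted from mouse brown adipose tissue (BAT), with 1 library of control mice and 1 of AdipoΔ/Δ mice. Both groups were C57Bl/6 males that carried AdipoQ-CreERT2 together with ATGLfl/fl. Their age is 16 weeks in the sample labels, and the sources differ on it. The control mice received vehicle. The AdipoΔ/Δ mice received tamoxifen at 10 mg/ml, as 200 uL into the peritoneum every 2 days for 1 week, followed by 2 weeks without injection. The Cre driver is active in mature adipocytes, where tamoxifen lets it delete Pnpla2, the gene of the triglyceride lipase ATGL. Because the control mice received no tamoxifen, an action of the drug itself and the deletion cannot be told apart, and with 1 library per condition neither can be told apart from a difference between libraries. How many mice were pooled for a library is not given.

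The control matrix held 2597 barcodes with 11327187 UMIs, and the AdipoΔ/Δ matrix held 2381 barcodes with 12028844 UMIs. After removal of barcodes with few genes or with over 10% mitochondrial UMIs, 2279 control cells (87.8%) and 2016 AdipoΔ/Δ cells (84.7%) were kept. The kept cells had medians of 3678 and 3942 UMIs. The libraries shared 4 barcode sequences. The sort marker Ptprc, which encodes CD45, had a UMI in 80.4% of kept cells in each library. Pnpla2 stood at 37.1 CPM (UMIs of the gene scaled to 1000000 UMIs of the cells counted; 95% interval 33.6 to 40.9) in control cells and 42.2 CPM (38.5 to 46.1) in AdipoΔ/Δ cells, which is no check of a deletion in adipocytes. Intervals throughout are exact and cover counting error only, because there are no replicate libraries. For 0 cells with a UMI the limit given is that of 3 cells.

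Markers of cells that the sort should leave out were low, with 2 exceptions. The adipocyte list summed to 5.39 CPM in control cells, with 7 of 9 genes present, Car3 the most abundant, and Ucp1 and Pck1 at 0. It summed to 6.98 CPM in AdipoΔ/Δ cells, where all 9 genes had UMIs. The endothelial list stood at 10.6 and 10.0 CPM (7 and 8 of 8 genes, Flt1 most abundant, Cldn5 at 0 in control), and the mural list at 11.8 and 10.0 CPM (6 and 5 of 6 genes, Acta2 most abundant, Myh11 at 0 in AdipoΔ/Δ). Platelet genes summed to 4.18 and 9.72 CPM, with 6 of 6 present and Ppbp the most abundant in both libraries. Erythrocyte genes summed to 1092 CPM in control and 8.93 CPM in AdipoΔ/Δ cells, with 5 of 5 present and Hbb-bs on top, so haemoglobin RNA was far more abundant in the control library. The fibroblast list summed to 88.9 CPM in control cells (7 of 8 genes, Pdgfra at 0) and 178 CPM in AdipoΔ/Δ cells (8 of 8 genes), and Gsn, which leukocytes also express, supplied 847 of 956 and 1568 of 2017 of those UMIs.

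Clusters were named from marker genes, none of which was a member of the 9, and each name below stands for cells with that marker pattern. Macrophage-like cells numbered 198 in control (8.69% of cells) and 584 in AdipoΔ/Δ (29.0%), with median depths of 3333 and 4649.5 UMIs. They fell into 4 groups. Resident macrophages, led by Folr2, Lyve1 and Cd209f, numbered 54 control and 115 AdipoΔ/Δ cells at median depths of 2616 and 5751 UMIs. Matrix macrophages, led by Lyz1, Retnla and Fcrls, numbered 50 and 175 cells; they expressed 8 of the macrophage markers, though the mean log2 ratio of that list against the other clusters was below 0 (-1.24). Lipid-associated macrophages, led by Gpnmb, Cd63 and Fabp5, numbered 13 and 73 cells at median depths of 1348 and 13008 UMIs. Macrophages with no subset pattern, led by Aif1, H2-Ab1 and H2-Aa, numbered 81 and 221 cells at 3580 and 1134 UMIs. The other classes were 369 and 175 classical monocytes, 346 and 279 patrolling monocytes, 314 and 173 neutrophils, 86 and 109 dendritic cells, 386 and 271 T cells, 206 and 170 NK cells, 262 and 93 B cells, 12 and 8 plasma cells, 17 and 34 dividing cells, 42 and 43 unnamed cells led by Cd7, and 41 and 77 unnamed shallow cells led by Gm26917.

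**Figure D1:**
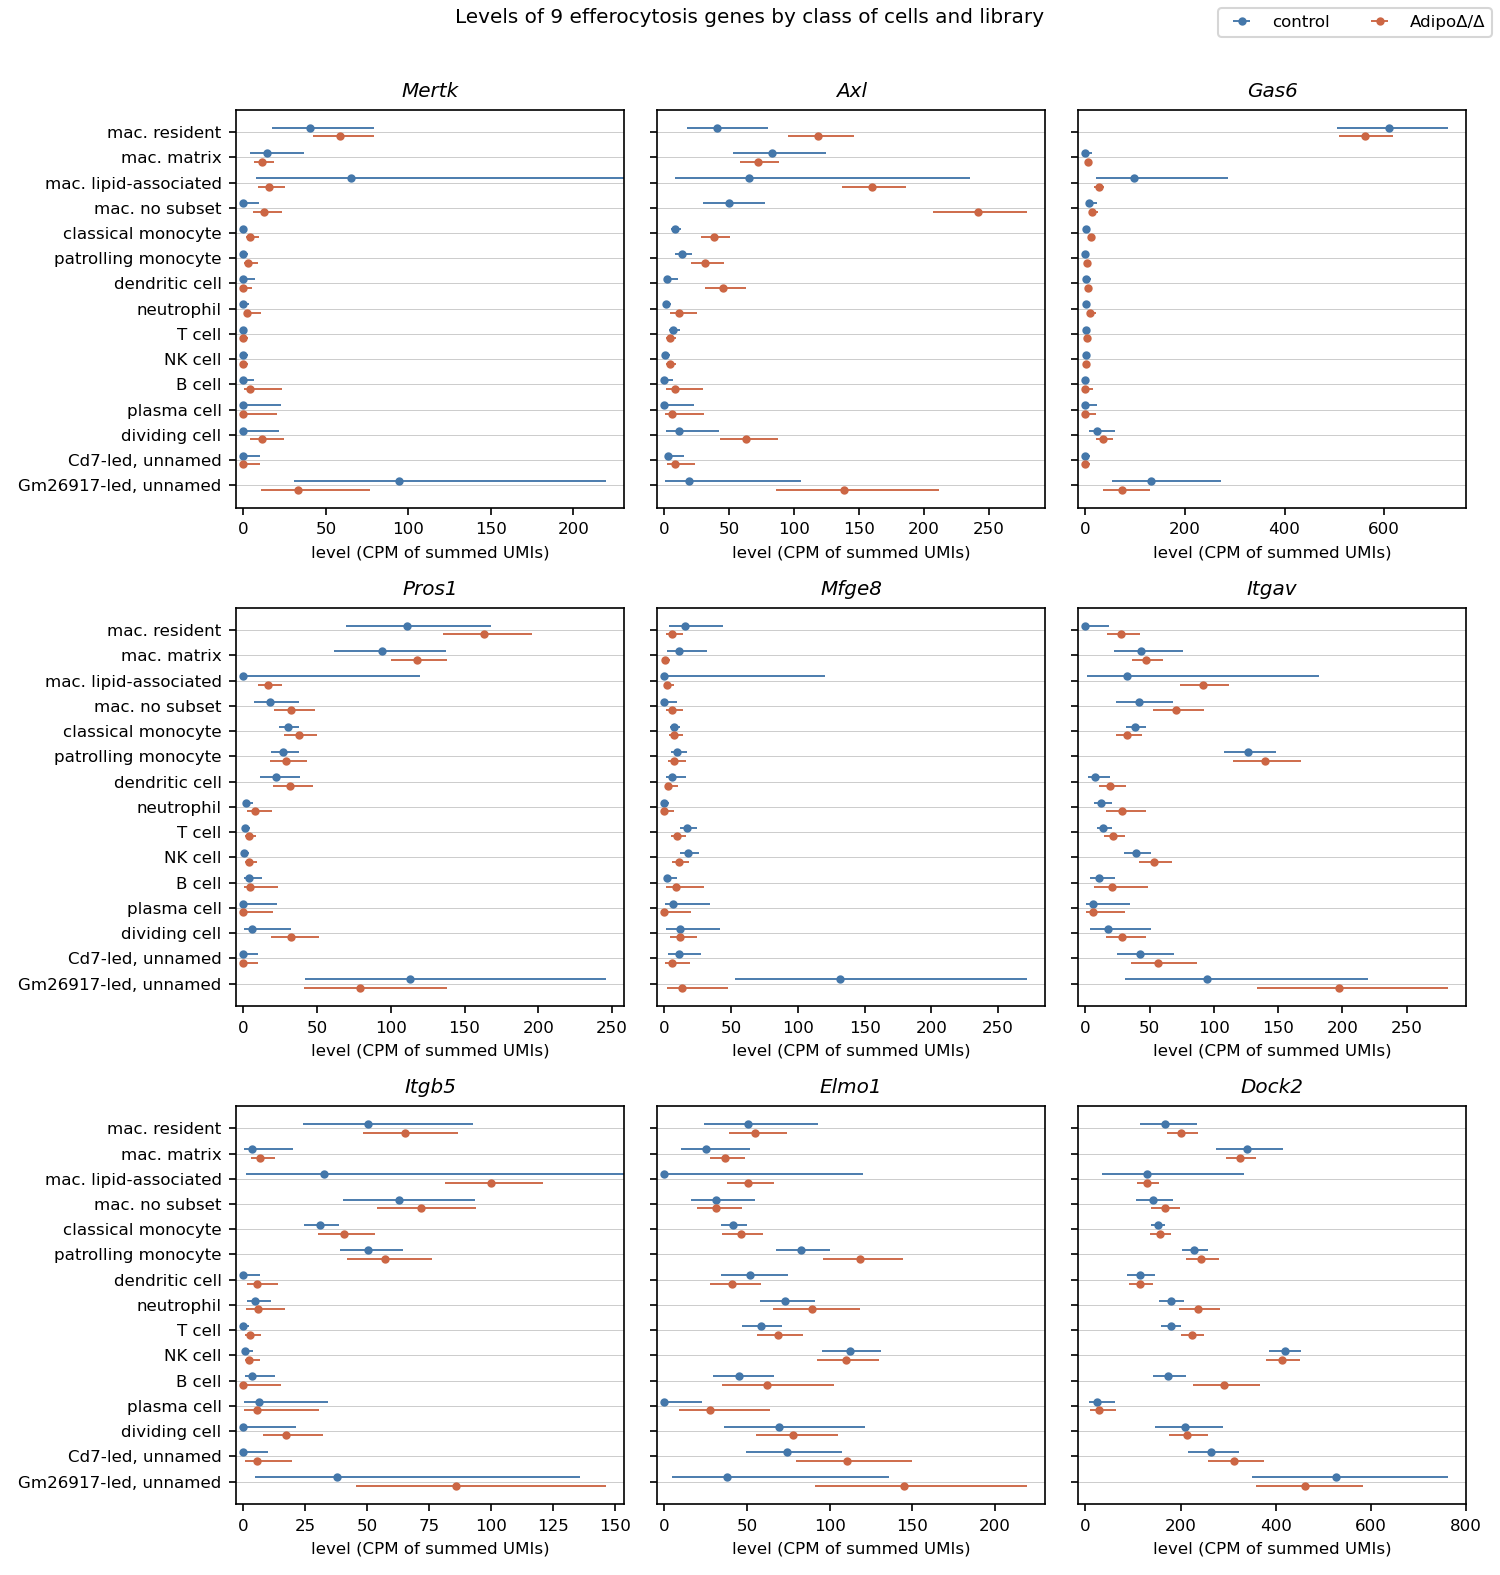
Level of each of the 9 genes in every class of leukocytes, in CPM of summed UMIs with 95% counting intervals, control beside AdipoΔ/Δ. For Mertk and Itgb5 the interval of the 13 control lipid-associated macrophages runs past the axis; Gas6 peaks in resident macrophages, while Elmo1 and Dock2 are spread over the classes.

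The level in macrophages against the other cells separated the 9 genes into 2 kinds. Axl, Gas6, Pros1 and Itgb5 were past 2-fold higher in macrophages than in the other cells of the control library, 4 of 8 members with at least 20 UMIs, against 7.76% of all genes so tested. Mertk, with 19 UMIs in control, was under the minimum there but stood 31.1-fold above the other cells (10.6 to 110). In AdipoΔ/Δ cells, where it could be counted at 8.10-fold (4.93 to 13.9), 5 of 9 members were past 2-fold higher against 9.41% of genes. Itgav, Mfge8, Elmo1 and Dock2 were not past 2-fold higher in macrophages in either library. The other cells pool all classes outside the macrophages. For Itgb5 patrolling monocytes alone stood at 50.4 and 57.2 CPM, beside 40.5 and 55.6 CPM in macrophages. A higher level did not mean that most UMIs lay in macrophages. In control, macrophages held 28.5% of Pros1 and 18.8% of Itgb5 UMIs, and classical monocytes 40.4% and 41.9%. In AdipoΔ/Δ macrophages held 69.9% and 61.0%. Macrophages held 8.26% of all control UMIs and 33.9% of all AdipoΔ/Δ UMIs. A gene found mostly in macrophages therefore takes a larger share of the AdipoΔ/Δ library with no change inside any class.

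**Figure D2:**
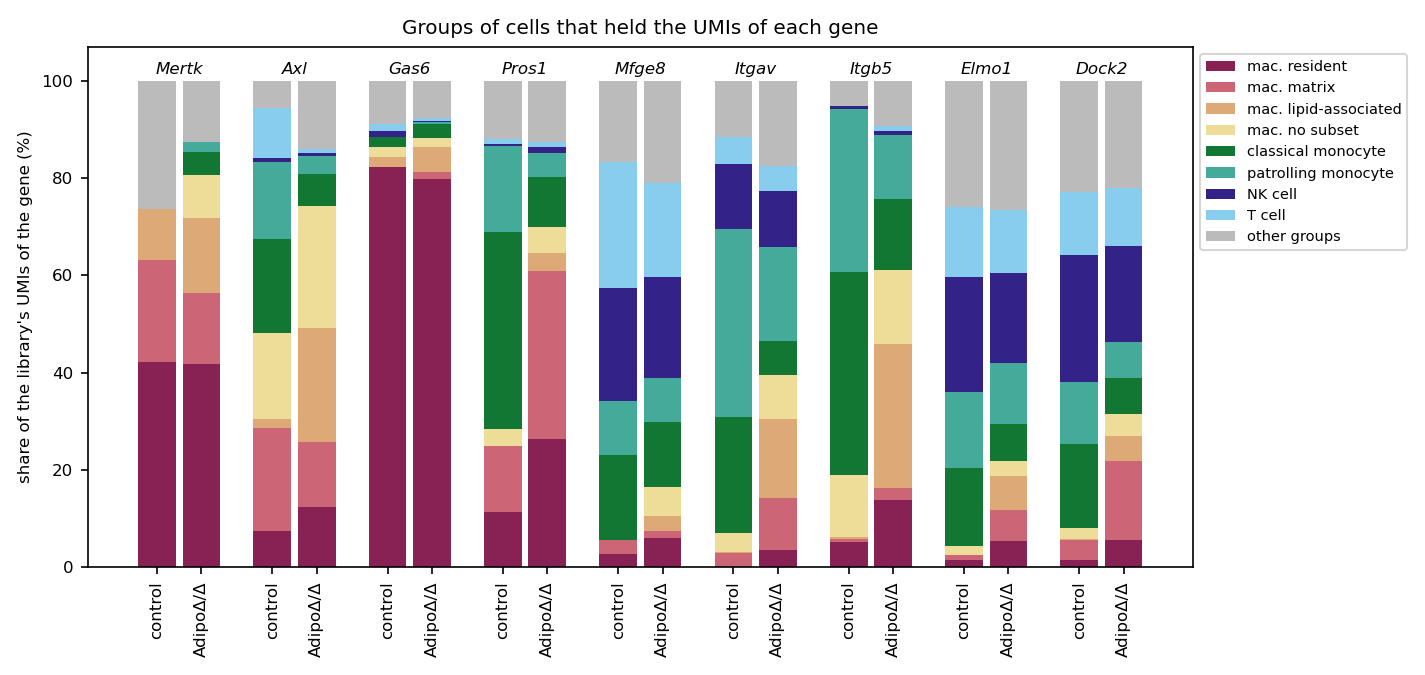
Share of each gene's UMIs, in percent, that came from each class in control and AdipoΔ/Δ cells. Macrophages supplied 48.1% of control and 74.2% of AdipoΔ/Δ Axl UMIs, and resident macrophages alone supplied 82.3% and 79.8% of Gas6 UMIs.

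Mertk (ENSMUSG00000014361; GRCm38 chr2:128698956-128802894, plus strand) encodes a TAM receptor kinase that macrophages use to take up apoptotic cells through Gas6 and protein S. It was sparse: 19 UMIs in control and 103 in AdipoΔ/Δ cells. Macrophages held 73.7% of the control and 80.6% of the AdipoΔ/Δ UMIs. Their level was 15.8 CPM (8.62 to 26.4) in control and 21.7 CPM (17.3 to 26.8) in AdipoΔ/Δ, a ratio of 1.37 (0.775 to 2.62) that does not differ from 1 beyond counting error. Over 19 other settings it ran from 0.802, in a merge without integration, to 2.36, at a mitochondrial limit of 2%. Of control macrophages 5.05% had a Mertk UMI, and of AdipoΔ/Δ macrophages 10.4%. The background for such shares came from lymphocytes: 0 of 386 control T cells (median 3467 UMIs), which allows up to 0.777% of cells with a UMI, 0 of 271 AdipoΔ/Δ T cells (3613 UMIs), which allows up to 1.11%, 0 of 262 control B cells (1803 UMIs) and 1 of 93 AdipoΔ/Δ B cells (2090 UMIs). Because depth differed between groups, each cell was also thinned to 1000 UMIs, which left out 199 control and 259 AdipoΔ/Δ cells that were shallower. After thinning, 1.61% of control and 2.95% of AdipoΔ/Δ macrophages had a Mertk UMI.

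In resident macrophages the Mertk level was 40.3 CPM (17.4 to 79.4, 8 UMIs) in control and 58.6 CPM (42.4 to 78.9, 43 UMIs) in AdipoΔ/Δ cells, a ratio of 1.45 (0.676 to 3.58) that ran from 1.17 to 4.09 over 14 other settings, with 4 at or above 2. Resident cells exceeded the other macrophages 4.64-fold (1.41 to 16.2) in control and 4.54-fold (2.88 to 7.16) in AdipoΔ/Δ cells, so the preference was seen in both libraries. A Mertk UMI was found in 9.26% of control and 23.5% of AdipoΔ/Δ resident cells, and in 1.96% and 7.41% after thinning. The matrix group had 14.4 and 11.3 CPM. The lipid-associated group had 65.1 CPM in control, from 2 UMIs, and 15.5 CPM in AdipoΔ/Δ cells. Macrophages of no subset had 0 of 81 cells with a Mertk UMI in control and 9 of 221 in AdipoΔ/Δ, at 12.2 CPM from 9 UMIs. Classical monocytes had 0 UMIs in control and 5 UMIs (3.98 CPM) in AdipoΔ/Δ. Both counts are under 20 UMIs, and the intervals of the ratios start at 1.02 and 1.88. Dendritic, T and NK cells had no Mertk UMI in either library. In the control order the resident group stood below the Gm26917-led cells at 94.2 CPM (5 UMIs) and the lipid-associated group, and these neighbours did not differ beyond counting error, nor did the resident group from the matrix group below it (2.79; 0.748 to 12.7). The resident group stood first in AdipoΔ/Δ, but the next group, the Gm26917-led cells at 32.9 CPM from 5 UMIs, did not differ from it beyond counting error.

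Axl (ENSMUSG00000002602; chr7:25757273-25788705, minus strand) encodes the TAM receptor kinase that binds Gas6 most tightly, and of the members with at least 20 UMIs it had the highest ratio between the libraries as reported, in macrophages and over all cells. Other settings changed that order: at a mitochondrial limit of 2% the all-cell ratio was 8.49 for Mertk and 4.18 for Axl, and the macrophage ratio 5.09 for Gas6 and 1.97 for Axl. In macrophages it stood at 58.5 CPM (43.7 to 76.8) in control and 137 CPM (126 to 149) in AdipoΔ/Δ cells, 2.34-fold higher (1.76 to 3.18). Across 19 other ways of processing the data this ratio was always above 1 and ran from 1.66 to 3.62, with 15 at or above 2; it fell to 1.66 with cells thinned to 1000 UMIs and to 1.73 without the macrophages of no subset. The share of macrophages with an Axl UMI was 17.2% in control and 29.8% in AdipoΔ/Δ, and 6.45% (3.38 to 10.998) and 9.89% (7.36 to 12.9) after thinning, where the intervals overlap. Background shares were 2.59% of control and 1.48% of AdipoΔ/Δ T cells, and 0 of 262 and 2 of 93 B cells. Macrophages exceeded the other cells 10.3-fold (6.93 to 15.3) in control and 5.61-fold (4.74 to 6.68) in AdipoΔ/Δ cells.

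The macrophage groups differed in Axl. In macrophages of no subset Axl stood at 49.7 CPM (29.9 to 77.6) in control and 241 CPM (207 to 279) in AdipoΔ/Δ, a ratio of 4.85 (3.02 to 8.25). That ratio ran from 1.72, after thinning, to 6.17 over 12 other settings. Thinning left out 8 of the 81 control and 94 of the 221 AdipoΔ/Δ cells of the group, so it compares other sets of cells. The group's mitochondrial share was 1.07% in control and 3.20% in AdipoΔ/Δ, and its part in the Axl ratio was not tested. Resident macrophages went from 40.3 to 119 CPM, a ratio of 2.94 (1.43 to 7.03) that ran from 1.77, as a mean over cells, to 3.63 over 14 other settings. Matrix macrophages had 83.0 CPM in control and 72.2 CPM in AdipoΔ/Δ, a ratio of 0.870 (0.547 to 1.44) that ran from 0.461, at a mitochondrial limit of 2%, to 1.01 over 15 other settings. Lipid-associated macrophages had 65.1 CPM in control, from 2 UMIs, and 160 CPM (137 to 186) in AdipoΔ/Δ, a ratio of 2.46 (0.670 to 20.5), also within counting error, which ran from 1.16 to 3.35 over 10 other settings. In AdipoΔ/Δ cells 64.4% of that deep group had an Axl UMI, and 20.5% after thinning. The order of levels in AdipoΔ/Δ ran from the no-subset group down to the lipid-associated group, 1.51-fold lower (1.21 to 1.87). Then came the Gm26917-led cells, at 138 CPM from 21 UMIs, and the resident group, which did not differ from their neighbours above. The matrix group followed, 1.64-fold below the resident group (1.21 to 2.22). Only neighbours were compared, so the lipid-associated and resident groups, at 160 and 119 CPM, were not compared with each other. In control the top 4 groups, matrix, lipid-associated, no-subset and resident, did not differ from neighbour to neighbour beyond counting error.

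Macrophages of no subset were shallow in AdipoΔ/Δ, so they were divided further with a finer clustering, a step chosen after the values were seen. The deeper part, led by Aif1 with Axl among its leading genes, held 54 control and 68 AdipoΔ/Δ cells at medians of 5326 and 5895.5 UMIs. Its Axl level was 58.3 CPM (35.1 to 91.1) in control and 245 CPM (204 to 291) in AdipoΔ/Δ cells. The shallower part, led by Lpl and Lgmn, held 27 and 150 cells at 1526 and 845 UMIs. A few AdipoΔ/Δ cells of the group lay in neither part. At this clustering the shallower part met the naming rule of no class, and only the deeper part was named macrophage-like. The shallower part's Axl level was 0 in control, with an upper limit of 65.3 CPM, and 239 CPM (177 to 314) in AdipoΔ/Δ. Fibroblast markers moved with this group: 120 CPM in control (2 of 8 genes) and 367 CPM in AdipoΔ/Δ (7 of 8 genes, Gsn with 195 of 271 UMIs, Pdgfra at 0). The mural list stood at 7.85 CPM in control, with Rgs5 at 0, and 32.5 CPM in AdipoΔ/Δ, all 24 UMIs of it Rgs5. Without the 1 control and 5 AdipoΔ/Δ cells that held a fibroblast UMI other than Gsn, Axl stood at 49.8 and 240 CPM.

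**Figure D3:**
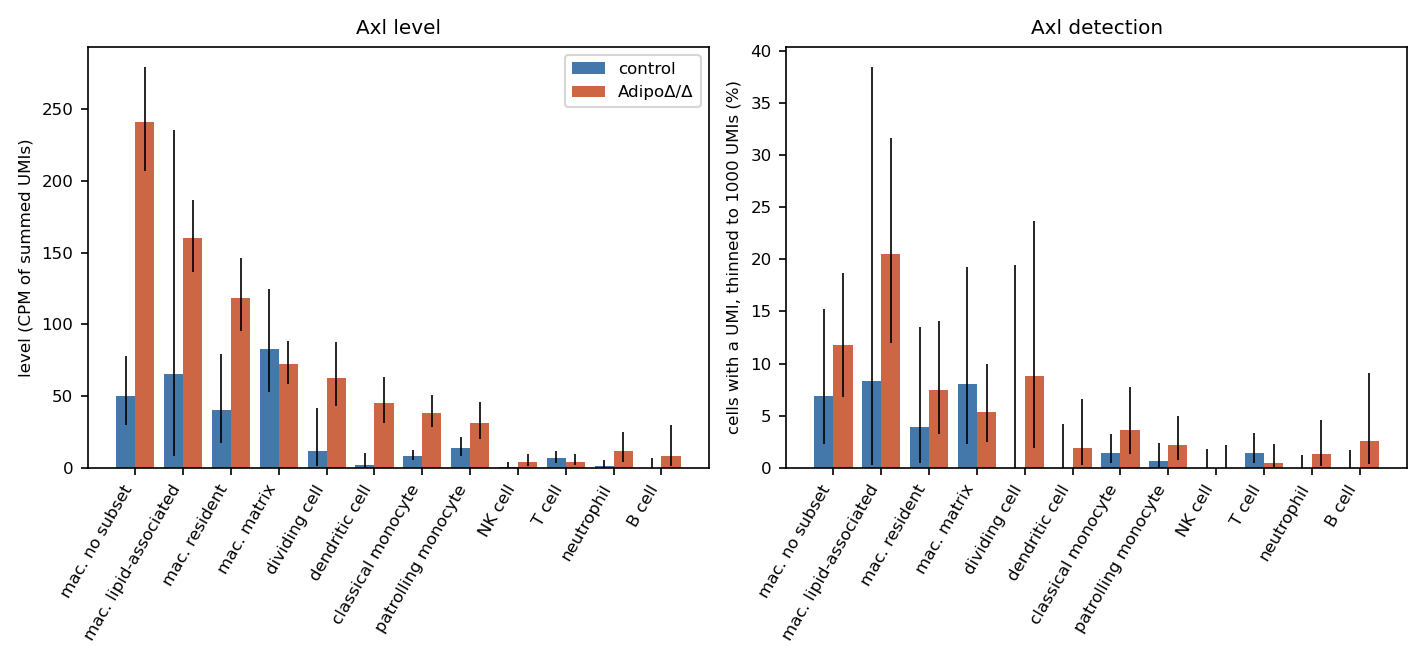
Axl by group of cells in control and AdipoΔ/Δ, as CPM of summed UMIs (left) and as the percentage of cells with a UMI after thinning to 1000 UMIs (right), each with 95% counting intervals. Levels in macrophages of no subset, classical monocytes and dendritic cells were higher in AdipoΔ/Δ beyond counting error, matrix macrophages stood at 83.0 and 72.2 CPM, and the intervals of the thinned shares overlap in every group.

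Axl also differed between the libraries in cells outside the macrophages. Classical monocytes, led by Chil3, Vcan and Mgst1, had 8.14 CPM (5.04 to 12.4) in control and 38.2 CPM (28.1 to 50.6) in AdipoΔ/Δ, a ratio of 4.69 (2.75 to 8.25) that ran from 3.01 to 5.03 over 15 other settings. Their share of cells with an Axl UMI was 4.34% and 14.9%, at similar median depths of 6834 and 6442 UMIs, and 1.40% and 3.61% after thinning. Patrolling monocytes had 13.4 and 31.1 CPM, a ratio of 2.32 (1.21 to 4.59) that ran from 1.74 to 3.28 over 15 other settings, with 11 at or above 2. Within them the Gngt2-led cluster carried most of the level, with 23.9 and 81.0 CPM, against 4.38 and 8.98 CPM in the Cd300e-led cluster. Dendritic cells had 1 UMI in 86 control cells (1.84 CPM) and 33 UMIs in 15 of 109 AdipoΔ/Δ cells (44.8 CPM), a ratio of 24.3 with an interval of 4.07 to 989, which ran from 14.1 to 36.8 over 13 other settings. Dividing cells had 11.6 CPM from 2 UMIs and 62.4 CPM, a ratio of 5.40 (1.38 to 46.4). The Gm26917-led cells had 1 and 21 UMIs, a ratio of 7.34 (1.18 to 304), and neutrophils 1 and 6 UMIs, a ratio of 12.1 (1.47 to 558). T cells had 6.66 and 4.25 CPM, within counting error, but in their Cxcr6-led cluster Axl was lower, with 9 and 2 UMIs and a ratio of 0.147 (0.0155 to 0.711). NK cells had 0.705 and 3.92 CPM from 1 and 5 UMIs.

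Gas6 (ENSMUSG00000031451; chr8:13465374-13494490, minus strand) encodes the secreted ligand that joins phosphatidylserine to Axl and Mertk. Its UMIs were concentrated in resident macrophages, at 610 CPM (506 to 729) in control and 561 CPM (509 to 618) in AdipoΔ/Δ cells. That level was 70.1-fold (31.3 to 195) above the other macrophages in control and 39.5-fold (28.9 to 55.3) in AdipoΔ/Δ, and it exceeded the next group in the order 4.62-fold (2.18 to 11.7) and 7.75-fold (4.28 to 15.6). Gas6 was also the fourth leading gene of the resident cluster, although it was kept out of the genes used for clustering. Between the libraries the resident level did not differ beyond counting error, with a ratio of 0.921 (0.750 to 1.14). A Gas6 UMI was found in 64.8% of control and 70.4% of AdipoΔ/Δ resident cells, and in 47.1% and 38.0% after thinning. Background shares were 0 of 262 and 0 of 93 B cells and 2 of 386 and 3 of 271 T cells. Over all macrophages Gas6 stood at 143 and 119 CPM, a ratio of 0.832 (0.682 to 1.02). Over 19 other settings this ratio ran from 0.522, in a merge without integration, to 5.09 at a mitochondrial limit of 2%, which left no resident cluster.

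Outside the resident group Gas6 was low. Macrophages of no subset had 7.85 CPM in control, from 3 UMIs, and 13.6 CPM in AdipoΔ/Δ cells. The matrix group had 0 of 50 control cells with a UMI and 5.26 CPM in AdipoΔ/Δ. The lipid-associated group had 97.7 CPM from 3 UMIs in control and 26.2 CPM from 27 UMIs in AdipoΔ/Δ, a ratio of 0.268 (0.0825 to 1.38). Classical monocytes held 3 UMIs (1.16 CPM) and 14 UMIs (11.1 CPM), a ratio of 9.57 (2.67 to 52.0) on fewer than 20 UMIs in all. The Gm26917-led cells had 132 and 72.5 CPM, from 7 and 11 UMIs, and stood second in both libraries.

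Pros1 (ENSMUSG00000022912; chr16:62854307-62929346, plus strand) encodes protein S, the plasma anticoagulant that is also a ligand of Mertk. It was shared by resident and matrix macrophages, a wider distribution than that of Gas6. Resident cells had 111 CPM (69.5 to 168) in control and 164 CPM (136 to 196) in AdipoΔ/Δ, a ratio of 1.48 (0.931 to 2.44). Matrix cells had 93.8 and 118 CPM, a ratio of 1.26 (0.827 to 1.99). The matrix group exceeded classical monocytes, the next in the control order, 3.10-fold (1.91 to 4.89), and in AdipoΔ/Δ the resident group exceeded the matrix group 1.39-fold (1.08 to 1.77). Classical monocytes had 30.2 and 37.4 CPM, patrolling monocytes 26.8 and 28.6 CPM, dendritic cells 22.1 and 31.2 CPM, and macrophages of no subset 18.3 and 32.5 CPM. Lipid-associated macrophages had 0 UMIs in control and 16.5 CPM in AdipoΔ/Δ. The Gm26917-led cells had 113 CPM (6 UMIs) in control, first in the order but not beyond counting error, and 79.1 CPM (12 UMIs) in AdipoΔ/Δ. Neutrophils, T, NK and B cells stayed at 7.58 CPM or less in both libraries. Over all macrophages Pros1 stood at 61.9 and 83.0 CPM, a ratio of 1.34 (1.00 to 1.82), with a UMI in 18.7% and 27.9% of cells and in 5.38% and 8.84% after thinning. Background shares were 0.518% and 1.48% of T cells. The direction turned to 0.955 with all 2000 features and to 0.907 when the libraries were merged without integration.

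Mfge8 (ENSMUSG00000030605; chr7:79133768-79149060, minus strand) encodes lactadherin, which joins phosphatidylserine to integrins. It was the one bridging gene without a macrophage preference. Macrophages had 6 UMIs in control (6.75 CPM) and 11 in AdipoΔ/Δ (2.87 CPM), under the 20 UMIs needed for a call. A UMI was found in 2.02% and 1.54% of macrophages, shares below the 6.48% and 4.80% seen in T cells. NK cells had 17.6 CPM (11.4 to 26.0) in control and 10.98 CPM (6.00 to 18.4) in AdipoΔ/Δ. T cells had 16.96 and 9.22 CPM, a ratio of 0.543 (0.258 to 1.08), and did not differ from NK cells beyond counting error. Neutrophils had no Mfge8 UMI in 314 control and 173 AdipoΔ/Δ cells, which allows up to 0.955% and 1.73% of cells with a UMI. The highest control level, 132 CPM in the Gm26917-led cells, came from 7 UMIs of 1 cell. Over all kept cells Mfge8 was lower in AdipoΔ/Δ, at 10.0 and 5.92 CPM, a ratio of 0.589 (0.428 to 0.807), and 0.677 with classes weighted to their control share of UMIs.

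Itgav (ENSMUSG00000027087; chr2:83724397-83806916, plus strand) encodes the integrin αv chain, the partner of several β chains. Patrolling monocytes, not macrophages, carried its highest level among the named classes, with 127 CPM (108 to 148) in control and 139 CPM (115 to 168) in AdipoΔ/Δ, a ratio of 1.10 (0.856 to 1.41). In control the next group, the Gm26917-led cells at 94.2 CPM, did not differ from them; in AdipoΔ/Δ those cells stood first, at 198 CPM. Macrophages had 32.6 CPM (21.9 to 46.9) and 59.8 CPM (52.3 to 68.0), a ratio of 1.83 (1.24 to 2.80) that reached 2 under 8 of 19 other settings. A UMI was found in 10.1% and 23.1% of macrophages, and in 3.23% and 5.68% after thinning. Lymphocytes carried Itgav too, with a UMI in 5.18% and 10.3% of T cells and 2.29% and 4.30% of B cells. Macrophage shares before thinning stood above these in both libraries, at depths that differed between the classes. The level of NK cells was above that of macrophages in control (39.5 CPM) and below it in AdipoΔ/Δ (53.3 CPM). The same held for the unnamed Cd7-led cells, at 42.4 and 56.6 CPM.

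By group, resident macrophages had 0 of 54 control cells with an Itgav UMI and 16 of 115 AdipoΔ/Δ cells, at 27.3 CPM, at least 1.80-fold higher with control set to its floor of 3 counts; the counting interval starts at 1.34. Lipid-associated macrophages had 1 UMI in control (32.6 CPM) and 91.2 CPM (73.7 to 112) in AdipoΔ/Δ, a ratio of 2.80 (0.490 to 112), and 56.2% of the AdipoΔ/Δ cells had a UMI. Macrophages of no subset had 41.9 and 70.5 CPM, a ratio of 1.68 (0.946 to 3.16), while the matrix group had 43.3 and 47.4 CPM. In AdipoΔ/Δ, patrolling monocytes exceeded the lipid-associated group 1.53-fold (1.15 to 2.03). NK cells had 39.5 and 53.3 CPM and classical monocytes 38.4 and 32.6 CPM. Dendritic cells had 7.38 and 19.0 CPM, beside 13.9 and 21.3 CPM in T cells and 10.47 and 20.7 CPM in B cells. Dendritic and B cells did not differ beyond counting error, and dendritic cells were not compared with T cells. Neutrophils were low but differed between libraries, at 12.2 and 28.4 CPM, a ratio of 2.33 (1.04 to 5.32).

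Itgb5 (ENSMUSG00000022817; chr16:33829665-33949338, plus strand) encodes the integrin β5 chain, which pairs with αv to bind Mfge8. It lay in monocytes and macrophages, while dendritic cells, T cells, NK cells, B cells and neutrophils had 5.69 CPM or less in both libraries. Macrophages of no subset had 62.8 and 71.8 CPM, resident macrophages 50.4 and 65.4 CPM, patrolling monocytes 50.4 and 57.2 CPM, and classical monocytes 31.0 and 40.6 CPM. Lipid-associated macrophages had 1 UMI in control and 99.9 CPM (81.5 to 121) in AdipoΔ/Δ, where 58.9% of cells had a UMI. No neighbours among the top 5 groups in either library differed beyond counting error, but groups further apart in the order were not compared. Against the other macrophages together, the lipid-associated group was 2.54-fold higher in AdipoΔ/Δ (1.93 to 3.36). In control that ratio was 0.798 (0.0196 to 4.75). Matrix macrophages were the exception within the class, at 3.61 and 6.77 CPM, 0.0830 times the level of the other macrophages in AdipoΔ/Δ (0.0374 to 0.161). Over all macrophages the ratio was 1.37 (0.960 to 2.01), which turned to 0.851 as a mean over cells and 0.854 after thinning and reached 2.39 in a merge without integration. The levels were 40.5 and 55.6 CPM, with a UMI in 13.6% and 20.2% of cells and in 5.91% and 5.05% after thinning. T cells, the background, had 0 of 386 and 2 of 271 cells with a UMI.

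Elmo1 (ENSMUSG00000041112; chr13:20090596-20608353, plus strand) encodes the adaptor that works with Dock proteins to activate Rac below engulfment receptors. NK cells led the control order at 112 CPM (95.4 to 131), 1.36-fold above patrolling monocytes (1.05 to 1.75), and had 110 CPM in AdipoΔ/Δ. The Gm26917-led cells were highest in AdipoΔ/Δ, at 145 CPM from 22 UMIs. They had 37.7 CPM from 2 UMIs in control, a ratio of 3.85 (0.946 to 33.7). Patrolling monocytes had 82.7 and 118 CPM, a ratio of 1.43 (1.07 to 1.91). Neutrophils had 73.2 and 89.1 CPM, T cells 58.2 and 68.8 CPM, B cells 45.4 and 62.2 CPM, classical monocytes 41.5 and 46.1 CPM, and dendritic cells 51.7 and 40.8 CPM. Macrophages stood below the rest of the leukocytes, at 0.502 times their level in control (0.334 to 0.729) and 0.542 times in AdipoΔ/Δ (0.453 to 0.645). Their own levels were 32.6 and 42.8 CPM, a ratio of 1.31 (0.879 to 2.02), with a UMI in 11.6% and 18.3% of cells and in 3.23% and 3.79% after thinning. T cells, at 19.2% and 25.8%, are no background for a gene that lymphocytes express. The macrophage groups ranged from 25.3 to 50.4 CPM in control, apart from the 13 lipid-associated cells with 0 UMIs, and from 31.2 to 54.5 CPM in AdipoΔ/Δ.

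Dock2 (ENSMUSG00000020143; chr11:34226815-34783892, minus strand) encodes the Rac exchange factor of haematopoietic cells, and it had UMIs in every class of both libraries. They were found in 49.1% of control and 53.8% of AdipoΔ/Δ cells over all classes. The Gm26917-led cells had the highest levels, 528 CPM (28 UMIs) and 461 CPM (70 UMIs), which did not differ from those of NK cells beyond counting error. NK cells had 419 CPM (386 to 454) and 413 CPM (379 to 450), with a UMI in 91.7% and 90.6% of cells and in 33.5% and 30.2% after thinning. Matrix macrophages had 339 and 326 CPM, a ratio of 0.960 (0.766 to 1.21), and NK cells exceeded them 1.27-fold in AdipoΔ/Δ (1.12 to 1.45) but not beyond counting error in control (1.24; 0.992 to 1.55). Resident macrophages had 166 and 202 CPM, lipid-associated 130 and 130 CPM, and those of no subset 141 and 167 CPM. Over all macrophages the ratio was 1.05 (0.895 to 1.24), from 208 to 219 CPM, with a UMI in 47.5% and 53.9% of cells and in 15.6% and 20.4% after thinning. Between the libraries B cells had 175 and 290 CPM, a ratio of 1.66 (1.21 to 2.28), and T cells 179 and 224 CPM, a ratio of 1.25 (1.06 to 1.47). Neutrophils had 179 and 237 CPM, a ratio of 1.32 (1.05 to 1.67), and plasma cells were lowest at 24.6 and 27.4 CPM. The control B cells held 10955 of the 11741 erythrocyte-gene UMIs of their library, 19117 CPM against 62.2 CPM in AdipoΔ/Δ B cells, and the part of this in the B cell ratios was not tested.

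The question of the design is how leukocytes differ after the deletion in adipocytes. Counts for the 9 genes are given by class, and classes were compared within a library by counting intervals only, with no p-value. In macrophages 1 of 8 members with at least 20 UMIs, Axl, was past 2-fold higher in AdipoΔ/Δ, against 9.32% of 9140 genes, and 0 were past 2-fold lower, against 3.67%. The median log2 ratio of the 8 was 0.44, and that of all genes 0.14. A count of 1 in 8 is near the background share. The count was 2 under 7 other settings, 3 in a merge without integration and 0 after thinning.

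In resident macrophages 2 of 8 members were past 2-fold higher, Axl and Itgav, against 11.5% of genes, and 0 lower against 2.87%; Itgav counts by its 0 control UMIs, with a bound of 1.80-fold. In matrix macrophages 0 of 5 members were past 2-fold in either direction, against 11% of genes higher and 2.47% lower. In lipid-associated macrophages Axl, Itgav, Itgb5 and Elmo1 were past 2-fold higher, 4 of 6, and Gas6 lower, 1 of 6, against 37.7% and 11.1% of genes. Those shares of genes are the highest of any group, for 13 control cells. None of the 5 members' intervals excludes 1, and Elmo1, with 0 and 52 UMIs, allows no statement of fold because its control floor of 97.7 CPM is above its AdipoΔ/Δ level of 50.4 CPM. In macrophages of no subset 1 of 6 members, Axl, was past 2-fold higher against 13.6%, and 0 lower against 5.23%. In classical monocytes 1 of 7, Axl, was higher against 3.76%, and 0 lower against 1.86%. In patrolling monocytes 1 of 6, Axl, was higher against 4.59%, and 0 lower against 1.76%.

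Median log2 ratios of members and of all genes were 0.46 and 0.16 in resident, 0.13 and 0.15 in matrix, 0.50 and 0.12 in no-subset macrophages, 0.15 and 0.07 in classical monocytes and 0.16 and 0.11 in patrolling monocytes. In lipid-associated macrophages they were 1.39 and 0.39, and the members' median was 0.65 with Elmo1 at its bound. TMM scaling in place of total UMIs shifts every log2 ratio by -0.06 in macrophages, -0.11 in classical and -0.14 in patrolling monocytes, 0.45 in lipid-associated macrophages and -0.13 over all cells.

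Over all kept cells, where class sizes enter, 4 of 9 members were past 2-fold higher in AdipoΔ/Δ, Mertk, Axl, Gas6 and Pros1, against 7.81% of 12080 genes, and 0 were past 2-fold lower, against 2.36%. Axl went from 10.0 to 62.7 CPM, a ratio of 6.24 (5.09 to 7.71). Mertk went from 1.77 to 9.10 CPM, a ratio of 5.15 (3.14 to 8.90) that was 8.49 at a mitochondrial limit of 2%, and Gas6 from 13.7 to 45.6 CPM, a ratio of 3.34 (2.77 to 4.03). Pros1 went from 17.9 to 40.2 CPM, a ratio of 2.24 (1.89 to 2.66) that was at or above 2 in 8 of 11 other settings and 1.71 at a mitochondrial limit of 2%. With AdipoΔ/Δ classes weighted to their control share of UMIs these ratios became 3.28 for Axl, 2.18 for Mertk, 1.22 for Gas6 and 1.34 for Pros1. Weighting thus brought Gas6 and Pros1 under 2-fold and left Axl and Mertk past it. The weighted ratios have no interval. That of Mertk takes in classes with 0 control UMIs, such as classical monocytes with 5 AdipoΔ/Δ UMIs. In macrophages the weighted ratio of Mertk was 1.42, beside 1.37 (0.775 to 2.62) unweighted. Itgb5 had a ratio of 1.74 (1.45 to 2.08), not past 2-fold. Of the members without a macrophage preference, Itgav had a ratio of 1.33 (1.17 to 1.51), Dock2 1.11 (1.05 to 1.17) and Elmo1 1.07 (0.964 to 1.19).

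**Figure D4:**
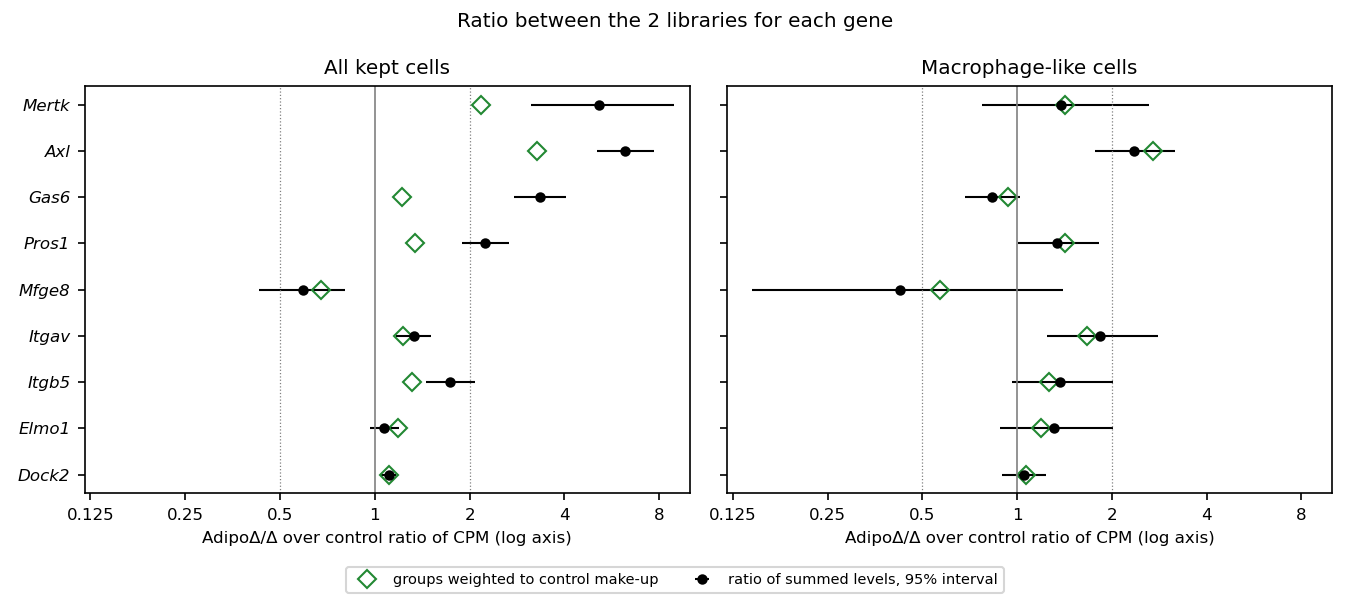
Ratio of AdipoΔ/Δ to control CPM for each of the 9 genes over all kept cells (left) and in macrophages (right), on a log axis, with points for summed UMIs and 95% counting intervals and diamonds for groups weighted to their control share of UMIs. Over all cells weighting takes Gas6 from 3.34 to 1.22, while in macrophages Axl is 2.34 by summed UMIs and 2.70 weighted.

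Some cells held UMIs of a receptor and its ligand together. Gas6 and Mertk UMIs lay together in 5 of 54 control resident cells (9.26%) and 25 of 115 AdipoΔ/Δ cells (21.7%). Gas6 and Pros1 lay together in 11 of 54 and 43 of 115 resident cells (37.4% of the latter). Mertk or Axl was seen in 42 of 198 control macrophages (21.2%) and 214 of 584 AdipoΔ/Δ macrophages (36.6%), but both in 2 and 21 cells. In AdipoΔ/Δ lipid-associated macrophages 50 of 73 cells (68.5%) had Mertk or Axl, and 26 of 73 (35.6%) had both integrin chains, Itgav and Itgb5. Elmo1 and Dock2 lay together in 18 of 198 and 82 of 584 macrophages. These shares were not thinned and rise with depth, which was higher in the AdipoΔ/Δ cells of the resident and lipid-associated groups.

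The other genes of the pathway formed 7 lists with 94 genes, none of them a member. The background for their counts is the 9.32% of genes higher and 3.67% lower in macrophages. In macrophages the bridging and matrix ligands had 3 of 5 tested genes (of 9 listed) past 2-fold higher in AdipoΔ/Δ and 0 lower, with a median log2 ratio of 1.69, or 1.35 with Thbs1 at its bound. Lgals3, a lectin that opsonises dying cells, went from 1324 to 4268 CPM, 3.22-fold (3.04 to 3.42). Anxa1, which binds phosphatidylserine and dampens inflammation, went from 179 to 589 CPM, 3.29-fold (2.80 to 3.89). Thbs1, which falls outside the rule for naming and was chosen after its values were seen, had 0 and 33 UMIs, at least 2.55-fold higher against the floor, with a counting interval from 1.96. By group Lgals3 stood at 323 and 696 CPM in resident, 902 and 1508 CPM in matrix, 1272 and 2299 CPM in no-subset and 12241 and 11777 CPM in lipid-associated macrophages. Anxa1 stood at 70.6 and 159 CPM, 170 and 347 CPM, 149 and 340 CPM, and 1335 and 1384 CPM in the same order.

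Apoptotic cell receptors had 1 of 11 tested genes (of 18) higher, near the background, and 0 lower, with a median of 0.40. The one was Cd36, a scavenger receptor that binds oxidised lipids and thrombospondin, at 271 and 979 CPM, 3.61-fold (3.17 to 4.13). By group Cd36 stood at 31.4 and 481 CPM in macrophages of no subset, 36.1 and 372 CPM in the matrix group, 1205 and 2280 CPM in the lipid-associated group, but 917 and 750 CPM in the resident group. The response to engulfed cells had 5 of 13 tested genes (of 14) higher and 0 lower, with a median of 0.44. Pparg, a nuclear receptor for fatty acids, went from 14.6 to 40.7 CPM, 2.78-fold (1.58 to 5.34), and Abcg1, a sterol exporter, from 28.1 to 65.5 CPM, 2.33-fold (1.54 to 3.67). Nr1h3, the sterol sensor LXRα, went from 21.4 to 46.7 CPM, 2.18-fold (1.36 to 3.71), and Odc1, the first enzyme of polyamine synthesis, from 12.4 to 30.8 CPM, 2.49-fold (1.34 to 5.12). Macrophages hold a different mix of groups in each library. In lipid-associated cells Nr1h3 stood at 163 CPM (5 UMIs) and 103 CPM, Pparg at 65.1 CPM (2 UMIs) and 74.7 CPM, Abcg1 at 65.1 CPM (2 UMIs) and 65.9 CPM, and Odc1 at 0 UMIs and 56.2 CPM. In macrophages of no subset the levels were 34.0 and 80.0 CPM for Nr1h3, 20.9 and 52.9 CPM for Pparg, 23.5 and 108 CPM for Abcg1, and 7.85 and 27.1 CPM for Odc1, which stood at 20.2 and 16.4 CPM in the resident group. The fifth was the glucose carrier Slc2a1 with 3 and 78 UMIs, named after its values were seen beyond the limit of 4 names. The most abundant gene of that list, Ucp2, stood at 843 and 1147 CPM, 1.36-fold.

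The engulfment machinery, the list nearest to Elmo1 and Dock2, had 2 of 16 tested genes (of 19) higher, near the background, and 0 lower, with a median of 0.11. These were the adaptor Crkl, at 11.3 and 25.8 CPM, 2.30-fold (1.20 to 4.93), and the kinase Abl1, at 7.88 and 18.3 CPM, 2.32-fold (1.07 to 5.98), while its most abundant gene, the GTPase Cdc42, stood at 835 and 986 CPM. Phagosome maturation had 0 of 17 genes past 2-fold in either direction, with a median of 0.31; Cyba, a subunit of the phagocyte oxidase, stood at 1297 and 1758 CPM. The find-me and do-not-eat-me signals had 0 of 7 tested genes (of 10) higher and 1 lower, with a median of -0.05. The lower gene was Cx3cr1, the receptor of fractalkine, at 97.9 and 38.1 CPM, a ratio of 0.389 (0.296 to 0.513). By group Cx3cr1 was lower in macrophages of no subset, at 196 and 89.5 CPM, but stood at 40.3 and 47.7 CPM in the resident group, 14.4 and 19.6 CPM in the matrix group and 0 and 18.4 CPM in the lipid-associated group. The most abundant, Sirpa, which reads CD47, stood at 322 and 366 CPM. TAM receptor shedding and signalling had 0 of 6 tested genes (of 7) past 2-fold, with a median of -0.04, and Grb2 stood at 206 and 197 CPM.

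In classical monocytes the medians were lower than in macrophages for 6 of the 7 lists, all but the find-me and do-not-eat-me signals, and the background was 3.76% of genes higher and 1.86% lower. Apoptotic cell receptors had 1 of 10 genes higher and 1 lower (median 0.20), bridging and matrix ligands 1 of 5 higher (0.33) and the response to engulfed cells 2 of 11 higher (0.26). TAM receptor shedding and signalling had 1 of 7 higher (-0.11). The genes past 2-fold, named here after their values were seen, were led by Cd36, at 4.65 and 111 CPM, 23.8-fold (13.2 to 47.1). Nr1h3 and Socs1, an inhibitor of cytokine signalling, were each 3.42-fold (1.40 to 8.86) on 24 UMIs, Pparg 2.46-fold (0.975 to 6.36) and Thbs1 2.05-fold (1.05 to 4.02). The lower gene, Cd300lf, a receptor for phosphatidylserine, had a ratio of 0.487 (0.251 to 0.883). The engulfment machinery (0 of 15, median -0.02), phagosome maturation (0 of 16, 0.03) and the find-me and do-not-eat-me signals (0 of 6, 0.07) had none past 2-fold.

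**Figure D5:**
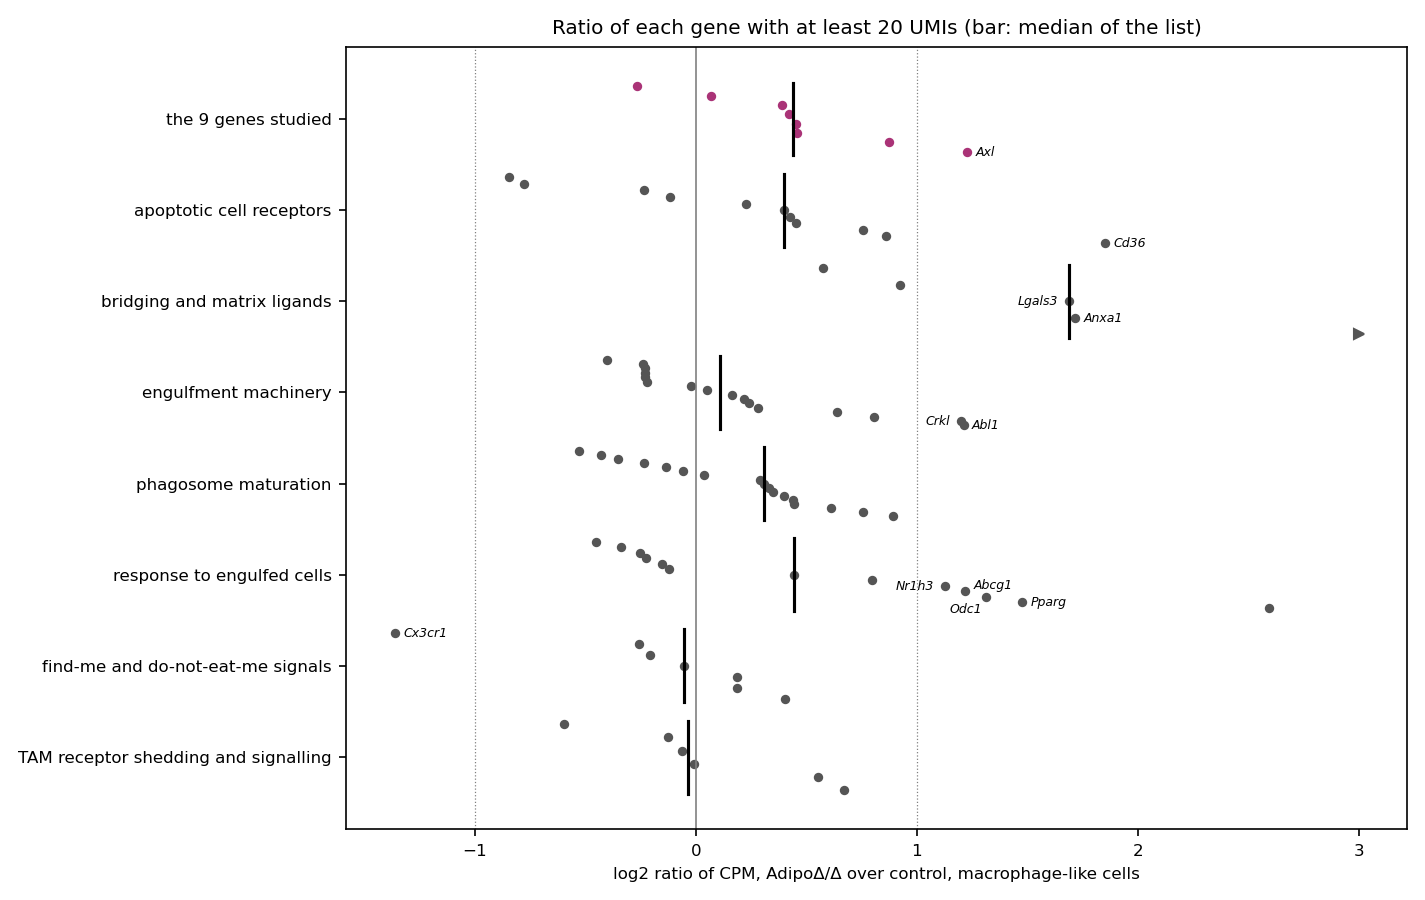
Log2 ratio of AdipoΔ/Δ to control CPM in macrophages for each gene with at least 20 UMIs, with the 8 such members on top, the 7 pathway lists under them and a bar at each median. The triangle is Thbs1, with 0 control UMIs and no finite ratio, the unlabelled point at the right of the response list is Slc2a1, and the bridging and matrix ligands have the highest median (1.69).

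Genes with patterns most like each member were ranked by the Pearson correlation of log2(CPM + 10) over 29 profiles, each a class in 1 library, so that profiles share libraries and no p is given. Gas6 was nearest to Fcna (r = 0.985), Slco2b1 (0.956) and Reps2 (0.954), and Mertk to Psd3 (0.951), Tns1 (0.917) and Sbf2 (0.915). Axl was nearest to Tnfrsf11a (0.936), which encodes the receptor RANK, then Anxa4 (0.927) and Myof (0.925). Pros1 was nearest to Abca9 (0.959), Plxnd1 (0.958) and Nav1 (0.954), and Itgb5 to the scavenger receptor gene Msr1 (0.939), Ctsb (0.920) and Fcgr1 (0.899). The widely spread members had lower values: Dock2 had Gsk3b (0.908) and Chd4 (0.905) among its nearest, and Elmo1 was nearest to Rbm39 (0.861), Sf3b2 (0.853) and Pafah1b1 (0.851), Mfge8 to Hmgxb3 (0.867), Zfp595 (0.838) and Usp40 (0.835), and Itgav to Agps (0.825), Ube2q1 (0.822) and Ilrun (0.810).

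Promoter sequence is shown for Axl, the member past 2-fold in macrophages, Gas6, the member of the resident group, and Dock2, which had UMIs in every class. RefSeq promoters of build GRCm38.p6 were found for all 9 members, and the 250 bases upstream of each start were searched on both strands for GAGGAA, the core bound by the myeloid factor PU.1, and for TGCTGA, the core of Maf recognition elements; the motifs do not overlap. Capitals mark GAGGAA, read as TTCCTC where it lies on the other strand. The sequences run 5′ to 3′ on the strand of the gene.
Axl (chr7:25788734-25788983, minus strand): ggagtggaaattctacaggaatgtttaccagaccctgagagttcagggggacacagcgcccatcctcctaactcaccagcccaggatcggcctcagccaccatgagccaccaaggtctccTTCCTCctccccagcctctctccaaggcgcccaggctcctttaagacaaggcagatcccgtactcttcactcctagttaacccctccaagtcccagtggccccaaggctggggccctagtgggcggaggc
Gas6 (chr8:13494536-13494785, minus strand): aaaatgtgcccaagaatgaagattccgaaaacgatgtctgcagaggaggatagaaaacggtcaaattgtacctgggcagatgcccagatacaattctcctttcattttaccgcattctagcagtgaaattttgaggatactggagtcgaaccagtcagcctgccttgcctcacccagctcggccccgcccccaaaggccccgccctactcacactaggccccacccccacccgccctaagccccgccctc
Dock2 (chr11:34783906-34784155, minus strand): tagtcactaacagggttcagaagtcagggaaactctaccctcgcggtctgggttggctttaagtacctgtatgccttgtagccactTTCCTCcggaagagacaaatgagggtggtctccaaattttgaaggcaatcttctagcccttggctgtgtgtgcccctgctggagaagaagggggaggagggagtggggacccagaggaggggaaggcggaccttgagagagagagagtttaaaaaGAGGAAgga
Axl had 1 match, Gas6 0 and Dock2 2. Of the other members Itgav had 2 matches, Mfge8 1 and the rest 0, and TGCTGA was in none of the 9. Of 32851 promoters of that length, 23.3% held GAGGAA and 16.1% TGCTGA. A match describes these letters only.

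The resident group's adipocyte markers summed to 136 CPM in control and 54.5 CPM in AdipoΔ/Δ cells, and the fibroblast list in macrophages to 111 CPM (6 of 8 genes) and 215 CPM (7 of 8). In the Gm26917-led cells the fibroblast list stood at 37.7 CPM (1 of 8 genes, Gsn) in control and 3038 CPM (461 UMIs, 8 of 8 genes, Gsn with 123) in AdipoΔ/Δ, and the platelet gene Ppbp had 0 and 49 UMIs (323 CPM). In lipid-associated macrophages Ppbp had 11 UMIs in control (358 CPM) and 7 in AdipoΔ/Δ (6.79 CPM). The part of these genes in the levels above was not tested, apart from Axl, which stood at 59.9 and 136 CPM in macrophages without cells that held a fibroblast UMI other than Gsn. With 1 library per condition no difference here has a replicate, and the 13 control lipid-associated macrophages give that group's control levels wide intervals.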

How the data were processed

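The deposited matrices hold raw UMI counts per gene and cell barcode for 1 control and 1 AdipoΔ/Δ library. Per the file headers they come from Cell Ranger 4.0.0, and the submitters' processing notes also name Seurat and mm10. Barcodes needed 200 detected genes and at most 10% mitochondrial UMIs, since the study's limit of 2% passed under 50% of one library (50.3% of control, 37.3% of AdipoΔ/Δ barcodes). The 1306 and 889 barcodes that pass it are fewer than the cells the study kept, so the deposited matrices do not return the study's set of cells. Scrublet (Scanpy 1.11.5, expected rate 0.02) called 0.308% and 0.294% doublets, which were kept. Cells were integrated and clustered in R 4.3.3 with Seurat 5.3.0 and sctransform 0.4.2, on 2000 features less the members, the pathway lists and genes the study names (1936 left), 20 principal components and resolution 1.0, giving 18 clusters of 4295 cells. Thresholds for naming clusters were set after the data were seen: at least 3 markers, each in 10% of cells, and a mean log2 ratio of the list of at least 1. Members and lists were chosen with earlier results of these data known. CPM and exact intervals used Python 3.11.15 with SciPy 1.17.1, and TMM factors edgeR 4.0.16. Only the ratios and their intervals were tested on simulated data. These were macrophage sums with counting error and no spread between cells or libraries. A gene was counted as past 2-fold with at least 20 UMIs in a class over both libraries. Pathway genes were named when past 2-fold in macrophages with at least 50 UMIs, at most 4 per list and direction, plus the most abundant of each list. One gene of the likeness ranking is not reported here. Positions are from GENCODE M21 (GRCm38). On its own strand Mertk overlaps 1 other gene and Elmo1 overlaps 3, none near the member's 3′ end. Alternatives covered cell filters, doublets, features, clustering, denominators, thinning and class weights.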

Additional observations from a re-analysis of the deposited data

Results flagged for a closer look

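The 318 control and 365 AdipoΔ/Δ barcodes left out of the classes, for few genes or a high mitochondrial share, also held UMIs of the members. All 9 stood higher in AdipoΔ/Δ there, 7 of them beyond counting error, which is what marked the 7 for a closer look. Most genes were higher there: of 6041 genes with at least 20 UMIs 75.2% were higher and 34.5% beyond counting error, against 8 and 6 of the 8 members so tested. Among the receptors, Mertk stood at 36.5 CPM in AdipoΔ/Δ and 3.48 CPM in control, and Axl at 118 and 6.97 CPM. Gas6 stood at 279 and 95.8 CPM, Pros1 at 102.5 and 15.7 CPM, and Mfge8 at 16.8 CPM in AdipoΔ/Δ with 0 UMIs in control. Itgav stood at 81.4 and 41.8 CPM, and Dock2 at 305 and 229.9 CPM. Itgb5, at 33.7 and 22.6 CPM, and Elmo1, at 75.8 and 54.0 CPM, did not differ beyond counting error. These barcodes were given no class, so a difference in the mix of cells was not tested.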

How the results depend on the processing

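No paired analysis was possible because each condition has 1 library and the labels link no mice between them. Of the values recomputed under other settings, 401 stayed, 64 moved and 2 changed direction. Moved means beyond the counting error of the reported value. The count of members past 2-fold has no such interval and was judged by whether it changed (12 stayed and 9 moved). For the values below the cause was not tested. A change of direction was counted only where the reported interval excludes 1, which left out other ratios that crossed 1. With every one of 2000 features the macrophage ratio of Pros1 turned to 0.955 and that of Gas6 was 0.545; in a merge without integration Pros1 turned to 0.907, and Gas6 was 0.522, Itgb5 2.39 and Dock2 0.858. Macrophage ratios that crossed 1 from an interval that includes 1 were Mertk at 0.814 (all features), 0.802 (merge) and 0.865 (without macrophages of no subset), Dock2 at 0.903 (all features), 0.858 (merge) and 0.893 (without no subset), Itgb5 at 0.851 (means over cells) and 0.854 (thinned), and Gas6 at 5.09 (limit of 2%) and 1.00 (thinned). Elmo1 over all cells crossed to 0.978 with TMM scaling, and Gas6 in resident macrophages to 1.36 without the top 5% of doublet scores and to 1.15 both thinned and as a mean over cells. At a mitochondrial limit of 2%, which left no resident cluster, the macrophage ratios were 5.09 for Gas6 and 1.90 for Pros1, and the all-cell ratios 4.18 for Axl and 1.71 for Pros1. Without macrophages of no subset the ratios were 1.73 for Axl, 0.588 for Gas6, 1.00 for Pros1, 2.18 for Itgb5 and 0.893 for Dock2. Without the matrix cluster, an alternative added after seeing the data, Axl was 3.62. With cells thinned to 1000 UMIs the macrophage ratios were 1.66 for Axl, 0.854 for Itgb5 and 1.31 for Dock2, and the all-cell ratios 4.07 for Axl, 2.75 for Gas6, 2.98 for Pros1 and 1.52 for Itgav. As means over cells, Itgb5 was 0.851 in macrophages, and over all cells Gas6 was 2.63, Itgav 1.65 and Elmo1 1.19. TMM scaling put Dock2 at 1.01 over all cells. With classes weighted to their control share, all-cell ratios were 2.18 for Mertk, 3.28 for Axl, 1.22 for Gas6, 1.34 for Pros1 and 1.31 for Itgb5.

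The count of members past 2-fold in macrophages, 1 as reported, was 2 at a mitochondrial limit of 5%, with all 2000 features, with 30 principal components, at resolution 0.6, without macrophages of no subset, without the matrix cluster and with no minimum above 1 UMI, 3 in the merge without integration and 0 after thinning. Thinning, which discards UMIs by construction, gave these shares of control and AdipoΔ/Δ macrophages with a UMI: Mertk 1.61% and 2.95%, Axl 6.45% and 9.89%, Pros1 5.38% and 8.84%, Itgav 3.23% and 5.68%, Itgb5 5.91% and 5.05%, Mfge8 0.538% and 0.421%, Elmo1 3.23% and 3.79%, Dock2 15.6% and 20.4%, and Gas6 14.0% and 9.89%. Over these settings Axl in classical monocytes ran from 3.01 to 5.03, Axl in patrolling monocytes from 1.74 to 3.28, Axl in macrophages of no subset from 1.72 to 6.17, Axl in dendritic cells from 14.1 to 36.8, Gas6 in resident macrophages from 0.783 to 1.36 and Mertk there from 1.17 to 4.09. Low counts limit Mertk (19 and 103 UMIs) and Mfge8 (108 and 67 UMIs), and the 13 control lipid-associated cells limit every ratio of that group.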
